A study of Mus musculus with 39 samples.

Results

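The translation initiation factor genes of the mouse, from Eif1 to Eif6, were described here in oocytes and preimplantation embryos. They were chosen by name, as all probes whose gene name on the array begins with Eif1 to Eif6, leaving out the Argonaute genes that older nomenclature calls Eif2c. This gave 85 of the 55681 probes and 54 genes. Of these, 51 were among the 15901 genes that passed the detection filter and were tested, and the other 3 (Eif2ak2, Eif2s3y and Eif5b) are given by their levels. The measurements were microarray signals on 39 arrays, 3 for each of 13 conditions, with RNA pooled from 100 oocytes or embryos on each array. All material carried the strain label B6D2F1 x ICR, and per the study's methods oocytes of adult B6D2F1 females were fertilized in vitro with sperm of ICR males. Untreated material covered GV oocytes, MII oocytes, 1-cell, 2-cell, 4-cell and 8-cell embryos, morulae and blastocysts. The treated embryos had been cultured with one of 2 histone deacetylase inhibitors (HDACi) at 10 µM for 6 h, from 4 h post-insemination (hpi), and were then returned to plain medium. T247, described as selective for HDAC3, was measured in 1-cell (12 hpi), 2-cell (24 hpi) and 4-cell (48 hpi) embryos, and MGCD0103, which mainly inhibits class I HDACs, at the 1-cell and 2-cell stages. Per the study, embryos treated with MGCD0103 did not reach the 4-cell stage. The comparisons ask how the transcripts of the initiation machinery move through the maternal-to-zygotic transition, and how HDACi change them.

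Initiation is the step at which a ribosome is placed on the start codon of an mRNA. eIF2 brings the initiator tRNA as a ternary complex with GTP, eIF2B recharges eIF2 with GTP, and the eIF2 kinases block this recycling by phosphorylating eIF2α under stress. eIF3, the largest of the factors, holds the small ribosomal subunit together with eIF1 and eIF1A, the eIF4F complex (eIF4E, eIF4G and eIF4A) binds the cap and unwinds the leader, and eIF5 and eIF5B lead to the joining of the large subunit. Oocytes and early embryos depend on this machinery in a particular way, since fully grown oocytes stop transcription and live on stored mRNA until zygotic gene activation (ZGA), which in the mouse has its major wave at the 2-cell stage.

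The promoters of 4 genes on which the HDACi results turn are printed here because these members moved together or stood out under HDACi: Eif5a2, the single member called a differentially expressed gene (DEG) at the 1-cell stage, and Eif3c, Eif1ad and Eif2b5, which had the largest falls at the 2-cell stage among the tested members. Each run is the 250 bases before the RefSeq gene start (build GRCm38.p6), 5′ to 3′ on the gene's strand. Capitals mark matches on either strand to CCGGAAG (the core of many ETS sites), CCAAT (the CCAAT box), GGGCGG (the GC box), CACGTG (the E box) and TATAAA (the TATA box). None of these strings contains another.
Eif5a2, chr3:28781027-28781276, plus strand: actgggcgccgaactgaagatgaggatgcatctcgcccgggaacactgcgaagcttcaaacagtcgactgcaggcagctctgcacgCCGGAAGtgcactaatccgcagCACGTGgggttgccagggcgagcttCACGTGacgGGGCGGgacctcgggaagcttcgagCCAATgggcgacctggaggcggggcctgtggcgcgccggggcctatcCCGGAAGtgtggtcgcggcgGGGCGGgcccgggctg
Eif3c, chr7:126566367-126566616, minus strand: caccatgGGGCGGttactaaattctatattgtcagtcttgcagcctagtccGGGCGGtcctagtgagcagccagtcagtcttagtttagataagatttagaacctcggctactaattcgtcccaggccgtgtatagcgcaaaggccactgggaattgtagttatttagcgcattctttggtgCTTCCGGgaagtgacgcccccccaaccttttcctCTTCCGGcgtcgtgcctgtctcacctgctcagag
Eif1ad, chr19:5366563-5366812, plus strand: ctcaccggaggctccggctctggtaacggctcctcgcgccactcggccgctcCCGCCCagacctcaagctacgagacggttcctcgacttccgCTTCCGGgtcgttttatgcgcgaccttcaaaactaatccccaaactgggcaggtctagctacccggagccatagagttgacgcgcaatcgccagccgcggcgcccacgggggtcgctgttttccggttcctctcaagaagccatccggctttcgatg
Eif2b5, chr16:20498567-20498816, plus strand: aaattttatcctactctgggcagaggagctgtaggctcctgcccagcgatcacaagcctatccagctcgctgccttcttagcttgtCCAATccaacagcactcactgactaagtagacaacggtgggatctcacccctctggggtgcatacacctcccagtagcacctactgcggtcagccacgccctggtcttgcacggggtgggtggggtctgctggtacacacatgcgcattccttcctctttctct

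RefSeq upstream sequences were found for 43 of the 54 members and for 27025 genes in all, noncoding genes included. A GC box lay in the upstream 250 bases of 32 of the 43 members (74.4%) and of 35.4% of all genes, and the ETS core in 12 members (27.9%) against 7.8%. The TATA box was found in 4 members (9.3%) and in 14.3% of all genes. Eif5a2 had 2 ETS cores, 2 GC boxes, 2 E boxes and 1 CCAAT box, whereas the upstream run of Eif2b5 held 1 CCAAT box and none of the other strings. These matches describe letters in the sequence and were not tested as sites.

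The following facts bear on all comparisons. By the flags of the scanner software, 61.8 to 76.7% of the probes on an array, control spots left out, were positive and significant. Of the 51 tested members, 49 were well above background on all 39 arrays, and the exceptions were Eif1a (32 arrays) and Eif4e3 (36 arrays). The 6 markers of the oocyte and zygote were well above background on every array up to the 2-cell stage, the 4 measured 2-cell markers had their highest summed log2 level in 2-cell controls (15.4 to 15.5), and the 6 blastocyst markers had theirs in blastocysts (19.1 to 19.2). Of 9 markers of cumulus and granulosa cells, 8 were not well above background at the 4-cell and 8-cell stages and in morulae, and 3 of 9 in GV oocytes. The 3 control 2-cell arrays stood apart from each other: their correlations ran from 0.932 to 0.993, with replicate 1 the distant one, against 0.985 to 0.996 within the other conditions. For comparisons of members that use the 2-cell controls, counts are therefore also given without control replicate 1. Shares of all genes were computed for the main fit, with all arrays and smooth quantile normalization. Without that replicate they were computed only for each HDACi against the 2-cell control. Counts under other settings have no such share to be set against. The calls that changed are named for the HDACi and stage comparisons. Counts of markers and of related genes include all 2-cell control arrays. No slide held both treated and control embryos, or both HDACi, so that slide and treatment cannot be told apart. The untreated stages were spread over 3 slides, each with 1 array of every stage, and differences within these slides are given beside the stage results. Each array pooled 100 oocytes or embryos, so that a lower level in every embryo and a lower share of embryos with the transcript cannot be told apart.

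At the 1-cell stage, Eif5a2 was the single member of the family called a DEG, and it was higher with both HDACi. It encodes the second isoform of eIF5A, the factor that carries the amino acid hypusine and helps stalled ribosomes. The normalized signal of Eif5a2 (log2) was 6.52, 6.95 and 7.21 on the 3 control arrays, 8.12, 8.28 and 8.21 with T247, and 7.98, 8.00 and 8.17 with MGCD0103. All treated arrays lay above all control arrays, and the control arrays were more spread than the treated ones. The log2 fold change (LFC, treated minus control) was 1.31 ± 0.15 with T247 (SE, n = 3 against 3, limma adjusted p = 2.08e-07). With MGCD0103 it was 1.15 ± 0.15 (n = 3 against 3, limma adjusted p = 2.51e-06). Here and below, SE and p come from a single model over all arrays, which pools a gene's spread over the conditions. They do not measure the spread of the compared arrays alone. They can therefore overstate precision where these arrays scatter widely, as the 2-cell controls do. A gene counted as a DEG when its LFC reached 1 in either direction with an adjusted p, over all tested genes, under 0.05. Under this rule 1 of 51 members was up (1.96%) with either HDACi, where 5.54% of all genes were up with T247 and 3.45% with MGCD0103. None was down, where 0.604% and 0.421% of all genes were. Without the LFC limit, 13 members with T247 and 8 with MGCD0103 had a limma adjusted p below 0.05. At an unadjusted p below 0.05 limma had 19 members with T247 and 15 with MGCD0103, in both directions. For counts by p alone, here and below, no share of all genes was computed, so that they cannot be read as a response of the members. The call with MGCD0103 was lost under 3 other settings and without control replicate 1 (LFC 0.97), where the LFC stayed at 0.87 to 0.99 with adjusted p of at most 1.21e-04.

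The elevation of Eif5a2 was seen at every later stage measured. In 2-cell embryos the signal was 7.21, 6.94 and 6.99 in controls, 7.98, 7.92 and 8.03 with T247 and 8.04, 7.96 and 8.13 with MGCD0103. In 4-cell embryos it was 6.43, 6.69 and 6.78 in controls and 7.65, 7.43 and 7.79 with T247. Again no treated array overlapped with the controls of its stage. The LFC was 0.93 ± 0.15 (limma adjusted p = 5.88e-06) with T247 and 1.00 ± 0.15 (limma adjusted p = 2.39e-06) with MGCD0103 at the 2-cell stage, and 0.99 ± 0.15 (limma adjusted p = 4.61e-06) with T247 at the 4-cell stage. These values lay at the LFC limit of 1, and unrounded all 3 fell short of it. Without 2-cell control replicate 1 both 2-cell values passed it (1.01 with T247 and 1.08 with MGCD0103). Eif5a, which encodes the main isoform, had LFCs of -0.69 and -0.56 with T247 in 1-cell and 2-cell embryos and of -0.34 and -0.28 with MGCD0103, none of them a DEG.

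**Figure D1:**
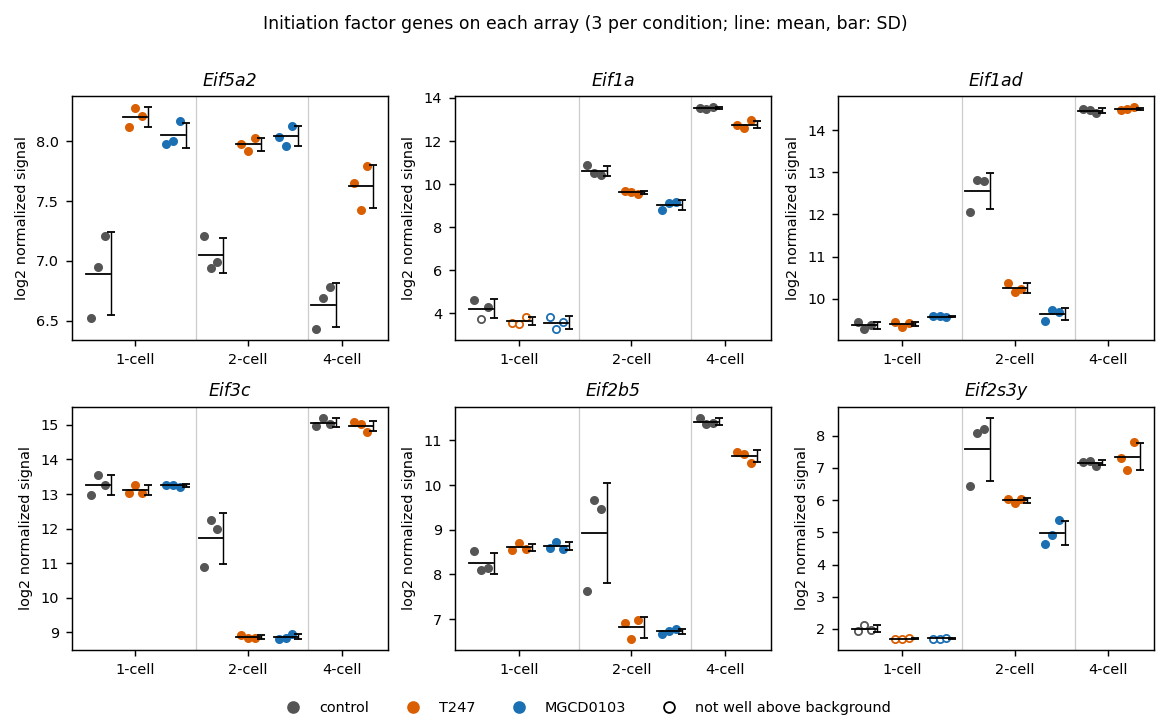
Normalized signal (log2, y axis) of 6 initiation factor genes on each array from the 1-cell to the 4-cell stage (x axis), with control arrays in grey, T247 in orange and MGCD0103 in blue; each point is 1 array, lines are means, bars are SDs over 3 arrays, and open points were not well above background. Eif5a2 lay above its controls with both HDACi at all stages measured, whereas Eif1ad, Eif3c and Eif2b5 lay below theirs at the 2-cell stage and Eif1ad and Eif3c reached control level at the 4-cell stage.

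In 2-cell embryos, many transcripts of the initiation machinery were lower in treated embryos. With T247, 19 of 51 members were down (37.3%) and none was up, where 16.3% of all genes were down and 8.93% up. The median LFC was -0.82 over the members and -0.26 over all genes tested. With MGCD0103, 17 members were down (33.3%) and 2 up (3.92%), where 15.4% of all genes were down and 12.3% up, and the median LFC was -0.35 over the members and 0.06 over all genes. Without 2-cell control replicate 1, 22 members were down and 1 up with T247 (20.4% and 11.1% of all genes), and 18 down and 5 up with MGCD0103 (19.7% and 18.2%). With T247, leaving it out added Eif2ak3, Eif3l, Eif2b2 and Eif3k to the members down and Eif5a2 to those up, and removed Eif3a. With MGCD0103 it added Eif2b2 to those down and Eif5a2, Eif3i and Eif4e1b (1.24) to those up, and removed none. With plain quantile normalization, T247 had 11 members down and 1 up, and MGCD0103 15 down and 4 up. The median LFC was then -0.38 over the members and -0.04 over all genes with T247, and -0.26 and 0.11 with MGCD0103. Shares of all genes were not computed for this scaling. Both comparisons share the control arrays. Blastocyst markers were higher in the same treated embryos: 5 of 6 were up with T247 (median LFC 1.49) and 4 of 6 with MGCD0103 (median 1.64), and their summed log2 level was 11.5 to 11.9 in 2-cell controls, 13.1 to 13.2 with T247 and 13.1 to 13.3 with MGCD0103. Of the 3 tested 2-cell markers none was a DEG with either HDACi. The part of these shifts in the results was not tested.

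**Figure D2:**
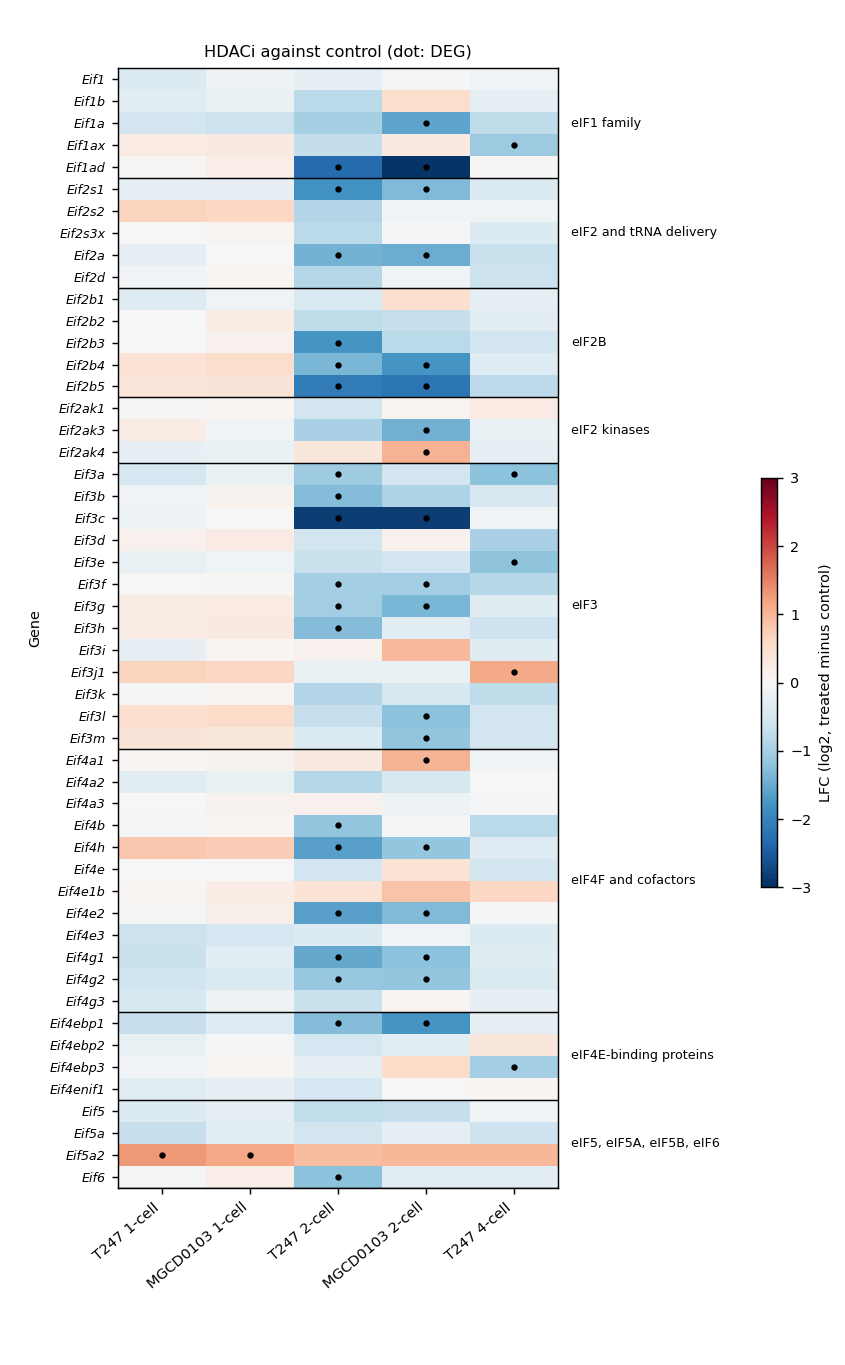
LFC of the 51 tested members (rows, grouped by role) in the 5 comparisons of HDACi with the control of the same stage (columns), as color from -3 (blue) to 3 (red) on the log2 scale; dots mark DEGs. The 2-cell columns are mostly blue, with 19 dots each, while the 1-cell columns have 1 dot each, at Eif5a2.

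The largest fall with T247 was that of Eif3c, a core subunit of eIF3. Its signal (log2) was 10.89, 12.26 and 12.00 on the 2-cell control arrays, 8.92, 8.84 and 8.83 with T247 and 8.82, 8.84 and 8.96 with MGCD0103. The treated arrays lay close together, far below the lowest control. The LFC was -2.85 ± 0.20 (limma adjusted p = 2.45e-12) with T247 and -2.84 ± 0.20 (limma adjusted p = 1.70e-12) with MGCD0103, and -3.26 with either when control replicate 1 was left out. A second Eif3c probe gave LFCs of -3.73 and -3.98. Earlier, in 1-cell embryos, the LFCs were -0.15 and -0.01, and later, in 4-cell embryos, that with T247 was -0.10, none of them a DEG.

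Of the 13 eIF3 genes, 6 were down with T247 and 5 with MGCD0103, and none was up. With T247 these were Eif3c, Eif3b (-1.31), Eif3h (-1.29), Eif3a (-1.06), Eif3g (-1.04) and Eif3f (-1.02). With MGCD0103 they were Eif3c, Eif3g (-1.38), Eif3l (-1.24), Eif3m (-1.19) and Eif3f (-1.05). The control and MGCD0103 arrays of Eif3l overlapped, since control replicate 1 lay at 9.78 and the other controls at 11.62 and 11.52, against 9.70, 9.69 and 9.80 with MGCD0103. Eif3i had an LFC of 0.12 with T247 and 0.97 with MGCD0103, neither of them a DEG. Without control replicate 1, Eif3i was up with MGCD0103 (1.55), Eif3l (-1.30) and Eif3k (-1.03) were also down with T247, and Eif3a (-0.72) was not.

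Eif1ad, whose protein contains an eIF1A-like domain, had the largest fall with MGCD0103. Its signal was 12.07, 12.82 and 12.80 in 2-cell controls, 10.38, 10.15 and 10.22 with T247 and 9.47, 9.74 and 9.69 with MGCD0103. All treated arrays lay below all control arrays, and those with MGCD0103 just above the 1-cell controls (9.28 to 9.46). The LFC was -2.31 ± 0.12 (limma adjusted p = 2.03e-14) with T247 and -2.93 ± 0.12 (limma adjusted p = 1.15e-16) with MGCD0103, and -2.56 and -3.18 without control replicate 1. A second, dimmer probe of Eif1ad did not show this: its LFCs were 0.86 (adjusted p = 0.0827) and 1.83 (adjusted p = 4.35e-04), and with the mean of both probes Eif1ad was no longer a DEG (-0.74 and -0.56). By the coordinates on the array (mm9) the brighter probe lies at chr19:5370188-5370247 and the dimmer one at chr19:5371355-5371414.

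Eif1a, which encodes an eIF1A protein, was 10.88, 10.53 and 10.41 in 2-cell controls, 9.69, 9.62 and 9.53 with T247 and 8.78, 9.13 and 9.18 with MGCD0103. No treated array reached the controls, and those with MGCD0103 below those with T247. The LFC was -0.99 ± 0.19 (limma adjusted p = 5.63e-05) with T247, just short of the limit, and -1.58 ± 0.19 (limma adjusted p = 4.57e-08) with MGCD0103, and -0.85 and -1.44 without control replicate 1. At the 4-cell stage the signal was 13.53, 13.50 and 13.56 in controls and 12.73, 12.61 and 12.96 with T247, an LFC of -0.76 ± 0.19 (limma adjusted p = 0.00154). At the 1-cell stage Eif1a was well above background on 2 of 3 control arrays and on none of the 6 treated ones, which gives at least a 1.26-fold lower level with T247 (limma adjusted p = 0.028) and 1.28-fold with MGCD0103 (limma adjusted p = 0.0208). Eif1ax, the X-linked paralog, had LFCs of -0.72 and 0.28 at the 2-cell stage, and Eif1, which guards start codon selection, of -0.25 and -0.06.

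Of the 5 subunit genes of eIF2B, 3 were down with T247 and 2 with MGCD0103. Eif2b5 encodes the catalytic ε subunit. Its signal was 7.64, 9.66 and 9.47 in 2-cell controls, 6.92, 6.55 and 6.98 with T247 and 6.67, 6.73 and 6.78 with MGCD0103. No treated array reached a control array, although control replicate 1 came within 1 log2 unit. The LFC was -2.10 ± 0.28 (limma adjusted p = 2.82e-07) with T247 and -2.19 ± 0.28 (limma adjusted p = 1.51e-07) with MGCD0103, and -2.75 and -2.84 without control replicate 1. Eif2b4 (δ subunit) was down with both (-1.36 and -1.77), and Eif2b3 (γ subunit) with T247 (-1.78), its LFC with MGCD0103 being -0.81. Eif2b2, the β subunit, had LFCs of -0.76 and -0.69, and was down without control replicate 1 (-1.12 and -1.05). Eif2b1, the α subunit, had LFCs of -0.45 and 0.47, neither of them a DEG.

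In the group of eIF2 and tRNA delivery, Eif2s1 (eIF2α) and Eif2a were down with both HDACi. Eif2s1 was 11.26, 12.07 and 11.94 in 2-cell controls, 9.88, 9.87 and 10.07 with T247 and 10.52, 10.42 and 10.33 with MGCD0103. The LFC was -1.81 ± 0.14 (limma adjusted p = 6.89e-12) and -1.33 ± 0.14 (limma adjusted p = 2.28e-09), and no treated array overlapped with a control. Without control replicate 1 the LFCs were -2.06 and -1.58. A second Eif2s1 probe gave -1.09 and -0.47 (adjusted p = 0.0863), so that the call with MGCD0103 rested on the brightest probe. Eif2a, a separate factor that can deliver initiator tRNA without the eIF2 trimer, had LFCs of -1.42 and -1.48. By their brightest probes, Eif2s2 (eIF2β), Eif2s3x (eIF2γ) and Eif2d had LFCs of -0.82 to -0.87 with T247 and of -0.05 to -0.12 with MGCD0103. Second probes differed from these: that of Eif2s3x gave -2.21 and -1.97, and that of Eif2s2 -0.29 and 0.53.

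Eif2s3y, the Y-linked copy of the eIF2γ gene, lay outside the detection filter, since it was not positive and significant on any 1-cell array. On the 24 arrays of later stages it was well above background. In 2-cell embryos its signal was 6.45, 8.07 and 8.22 in controls, 6.04, 5.91 and 6.02 with T247 and 4.64, 4.92 and 5.39 with MGCD0103. The order of control, T247 and MGCD0103 was without overlap. When probes detected in any condition were included, the LFC was -1.59 ± 0.27 (limma adjusted p = 1.91e-05) and -2.61 ± 0.27 (limma adjusted p = 4.88e-09), and in 4-cell embryos 0.19 ± 0.27 (limma adjusted p = 0.628) with T247. These values were not refitted without control replicate 1.

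Among the kinases that phosphorylate eIF2α, Eif2ak3 (PERK) fell by 1.44 with MGCD0103 and had an LFC of -0.98 with T247. Its control arrays were 8.31, 10.26 and 10.12, against 8.68, 8.42 and 8.64 with T247 and 7.83, 8.28 and 8.26 with MGCD0103. Control replicate 1 thus lay below all T247 arrays and just above the highest MGCD0103 array. Without that replicate the LFCs were -1.61 and -2.06. Eif2ak4 (GCN2) rose by 1.04 ± 0.25 (limma adjusted p = 8.21e-04) with MGCD0103. Its signal was 12.69, 10.76 and 10.97 in controls and 12.58, 12.52 and 12.43 with MGCD0103, below control replicate 1 and above the other controls. The rise was no longer a DEG without control replicate 2 (0.68) or 3 (0.79), and was 1.65 without replicate 1. The same held for Eif4a1, the RNA helicase of eIF4F, at 15.45, 13.79 and 14.07 in controls and 15.50, 15.50 and 15.39 with MGCD0103: its LFC of 1.03 ± 0.21 (limma adjusted p = 1.63e-04) was 0.71 or 0.85 without control replicate 2 or 3, and 1.54 without replicate 1.

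Of the 12 genes of eIF4F and its cofactors, 5 were down with T247 and 4 with MGCD0103. Down with both were Eif4h, a cofactor of the helicase (-1.63 and -1.17), the scaffold genes Eif4g1 (-1.53 and -1.23) and Eif4g2 (-1.13 and -1.15), and the cap-binding homolog gene Eif4e2 (-1.64 and -1.32; its second probe gave -0.84 and -0.02). Eif4b fell by 1.19 with T247, while its LFC was -0.06 with MGCD0103. Eif4ebp1, whose protein binds eIF4E and is controlled by mTOR, was 9.62, 12.33 and 12.09 in controls, 10.11, 9.97 and 10.06 with T247 and 9.39, 9.60 and 9.73 with MGCD0103. Its LFCs were -1.30 and -1.77, yet control replicate 1 lay within the range of the treated arrays, and without it they were -2.16 and -2.63. Eif6, whose protein keeps the ribosomal subunits apart, fell by 1.24 with T247 and had an LFC of -0.35 with MGCD0103. A dimmer Eif6 probe gave -3.07 and -3.49.

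Whether the LFC differed between 2-cell and 1-cell embryos was tested as well. With T247 the LFC of 17 members went down and that of none went up, where 14.8% and 4.29% of all genes did so. With MGCD0103 it went down in 15 members and up in 1, where 15.5% and 6.15% of all genes did so. Without 2-cell control replicate 1 it went down in 23 members and up in 1 with T247, and down in 16 and up in 5 with MGCD0103. The shares of all genes were not computed for this setting, so that these counts cannot be set against them.

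The HDACi were also compared with each other. At the 1-cell stage limma called none of the 51 members (0.0252% of all genes were higher and 0.195% lower with MGCD0103 than with T247), with 5 members at an unadjusted p below 0.05. Their differences ranged from -0.35 to 0.35. At the 2-cell stage 3 members were higher with MGCD0103 than with T247 and none was lower, where 3.25% of all genes were higher and 2.67% lower. These were Eif1b (1.34 ± 0.19, limma adjusted p = 6.05e-06), Eif4b (1.13 ± 0.10, limma adjusted p = 2.01e-08) and Eif1ax (1.00 ± 0.12, limma adjusted p = 1.52e-06). With quantile normalization 2 members were higher and 1 lower. Eif1b was 11.69, 11.87 and 11.74 with T247 and 13.31, 13.02 and 12.98 with MGCD0103, while the 2-cell controls, at 13.37, 11.92 and 12.43, lay above the T247 arrays and on both sides of the MGCD0103 arrays. The largest difference in the other direction among tested members was that of Eif3m (-0.79). Eif2s3y, with probes detected in any condition included, differed by -1.02 ± 0.27 (limma adjusted p = 0.00647).

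At the 4-cell stage 4 of 51 members were down with T247 (7.84%) and 1 was up (1.96%), where 5.88% of all genes were down and 12.0% up, and the median LFC was -0.37 over the members and 0.00 over all genes. Eif3a was 11.29, 11.22 and 11.46 in controls and 10.23, 9.64 and 10.37 with T247, an LFC of -1.24 ± 0.19 (limma adjusted p = 4.58e-06). Eif3e was 12.18, 12.38 and 12.38 in controls and 11.22, 11.01 and 11.06 with T247, an LFC of -1.21 ± 0.12 (limma adjusted p = 5.83e-09). Neither gene had overlapping arrays. Eif1ax had an LFC of -1.09 ± 0.12 (limma adjusted p = 6.34e-08) and Eif4ebp3 of -1.01 ± 0.23 (limma adjusted p = 6.34e-04). Eif3j1, which encodes a loosely bound eIF3 subunit and stands on the array as Eif3j, rose by 1.13 ± 0.21 (limma adjusted p = 6.08e-05), from 11.35, 11.73 and 11.57 to 12.76, 13.01 and 12.27. With the mean of its probes the LFC was 0.38 (adjusted p = 0.0722). Without T247 replicate 2, 2 members were down and 1 up, and Eif3j1 (0.96) was not a DEG. With quantile normalization 1 was down and 1 up, and with scaling to the 75th percentile 6 were down and none up. Of the 3 tested 2-cell markers 2 were up with T247 (median LFC 1.21), as was 1 of 6 blastocyst markers, and 1 of 6 oocyte and zygote markers was down. The summed log2 level of the 2-cell markers was 12.55 to 12.86 with T247 and 11.89 to 12.15 in controls. The part of these shifts in the 4-cell results was not tested. MGCD0103 has no samples at this stage, which embryos treated with it did not reach, per the study.

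Related genes of translation that are not initiation factors moved at the 2-cell stage as well. Of 36 such genes tested, 13 were down with T247 and none up, and 13 were down and 2 up with MGCD0103. This is 36.1% down with either, where 16.3% of all genes were down with T247 and 15.4% with MGCD0103. All 2-cell control arrays, replicate 1 included, enter the values of these related genes. Both enzymes of hypusination, the modification that activates eIF5A, were down: Dohh had LFCs of -2.08 and -2.75, and Dhps fell by 1.37 with MGCD0103 and somewhat less with T247. Pabpc1, the poly(A)-binding protein gene, was down (-1.51 and -2.41), whereas Pabpc1l, its oocyte paralog, rose by 1.76 with MGCD0103 and had an LFC of 0.31 with T247. Ppp1r15b, a subunit of the phosphatase that reverses the phosphorylation of eIF2α, was down as well (-2.39 and -4.15). Mcts1, whose protein acts in the release of ribosomal subunits and reinitiation, was up at the 1-cell stage (2.19 with T247 and 1.53 with MGCD0103) and down at the 2-cell stage (-1.72 and -2.65). By list and HDACi (T247, then MGCD0103), 6 and 7 of 19 initiation partners were down and none and 1 up, 3 and 3 of 5 genes of the eIF2α phosphatase and stress response were down, 2 and 1 of 7 elongation factors were down and none and 1 up, and none of 3 termination factors was a DEG. At the 1-cell stage Mcts1 was the one DEG among the 36 with either HDACi, where 5.54% (T247) and 3.45% (MGCD0103) of all genes were up. At the 4-cell stage limma called none (17 at an unadjusted p below 0.05), where 12.0% of all genes were up and 5.88% down with T247.

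Levels of the initiation factors also changed between the untreated stages. The smooth quantile normalization used here keeps differences between the stages in the overall distribution of signals, and the median LFC of all genes was therefore not 0: it was -0.98 from GV to MII oocytes, -0.48 from the 1-cell to the 2-cell stage and 0.52 from the 8-cell stage to the morula. Plain quantile normalization turned these medians to 0.30, -0.29 and -0.03. Among the 51 members, 16 had their highest mean level in GV oocytes, 19 in morulae and 10 in blastocysts, and 16 had their lowest in MII oocytes, 9 in 1-cell and 12 in 2-cell embryos. The same count was not made over all genes, whose medians also moved between the stages. These numbers can therefore not be read as particular to the members.

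**Figure D3:**
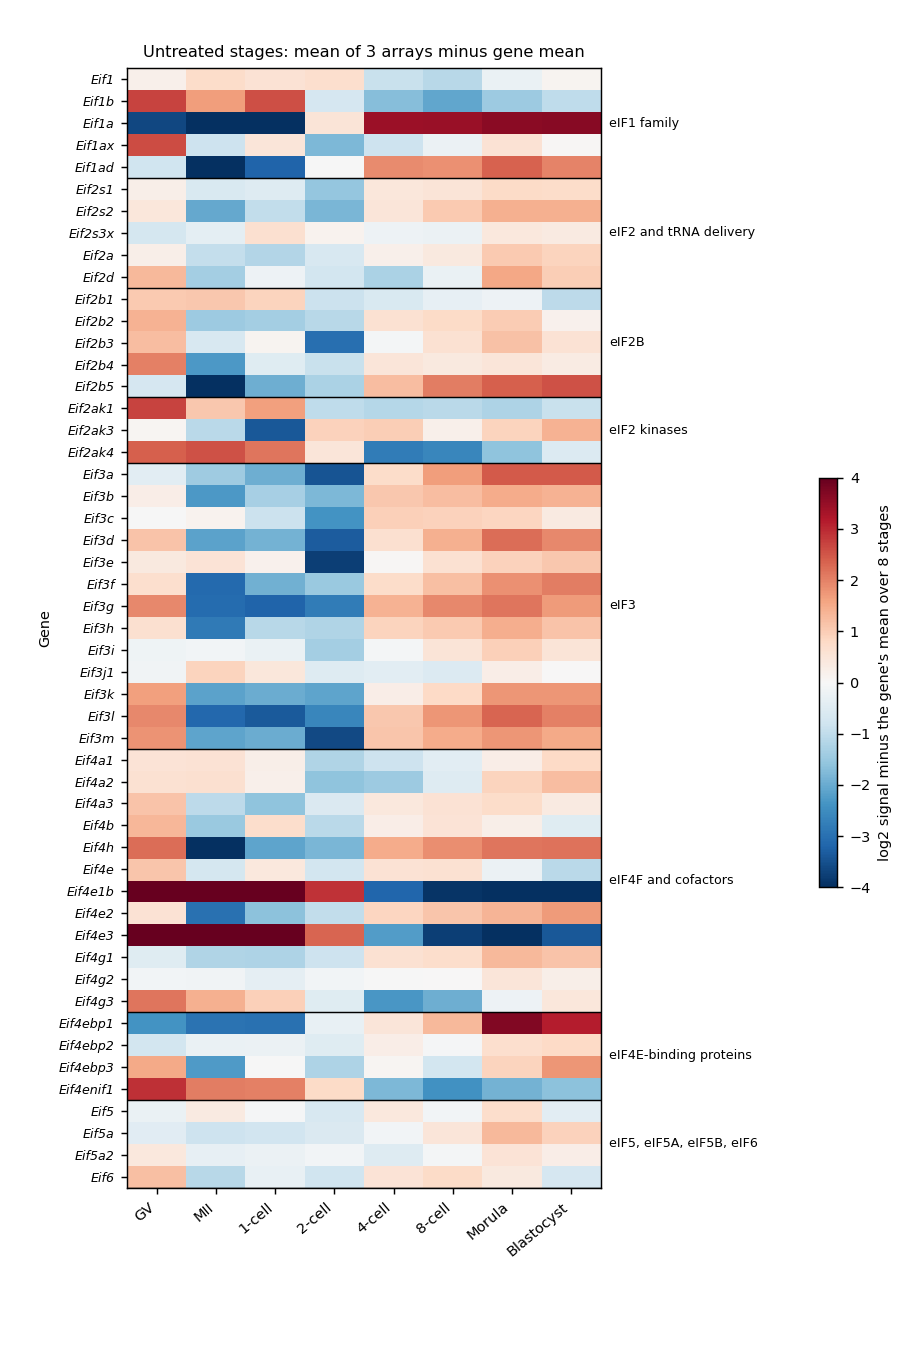
Mean signal of 3 arrays at each of the 8 untreated stages (columns) minus the gene's own mean over these stages, for the 51 tested members (rows, grouped by role), as color from -4 (blue) to 4 (red) on the log2 scale; larger values take the end color. Most eIF3 and eIF2B rows are blue between the MII and 2-cell stages and red from the 4-cell stage on, whereas Eif4e1b, Eif4e3, Eif2ak4 and Eif4enif1 run the other way.

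From GV to MII oocytes 28 members were down (54.9%) and 1 was up (1.96%), where 48.7% of all genes were down and 0.396% up. The median LFC was -1.19 over the members. With plain quantile normalization, and also with scaling to the 75th percentile, 19 members were down and 14 up, and the falls of Eif2a and Eif2ak3 turned to small rises (0.33 and 0.32 with quantiles), as did that of Eif1b with the percentile (0.32). The largest fall was that of Eif4h, from 15.39, 15.52 and 15.42 in GV oocytes to 7.43, 7.15 and 7.28 in MII oocytes. The LFC was -8.16 ± 0.21 (limma adjusted p = 2.99e-24), a 286-fold difference, and ran from -8.37 to -7.96 within the slides. Of the 13 eIF3 genes 8 were down, with Eif3l at -5.06 ± 0.24 (limma adjusted p = 8.89e-18, -5.19 to -4.92 within slides), followed by Eif3g (-5.00), Eif3m (-3.91), Eif3f (-3.79), Eif3k (-3.76), Eif3h (-3.48), Eif3d (-3.29) and Eif3b (-2.58). With quantile normalization 7 of these 13 genes were down and 4 up. Eif3e, at 12.62 to 12.91 in MII oocytes, was near its GV level (LFC 0.15), the probes of Eif3c disagreed (0.16 for the brightest and -4.94 for the second), and Eif3j1 rose by 1.04 ± 0.21 (limma adjusted p = 5.52e-05, 0.93 to 1.18 within slides), a call lost with the mean of its probes (0.08, adjusted p = 0.716) and without GV replicate 1 (0.84), MII replicate 2 (0.98) or MII replicate 3 (0.97). Of the eIF2B genes 4 of 5 were down, with Eif2b4 at -4.32.

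From MII oocytes to 1-cell embryos 13 members were up (25.5%) and 1 was down (1.96%), where 17.3% of all genes were up and 5.24% down. The median LFC was 0.06 over the members and 0.15 over all genes. Eif4h rose again, to 11.22, 10.71 and 11.33, by 3.80 ± 0.21 (limma adjusted p = 4.09e-15, 3.57 to 4.05 within slides), and Eif2b5 rose by 2.37 ± 0.28 (limma adjusted p = 3.20e-08, 1.90 to 2.90 within slides). Eif2ak3 fell from 8.05, 7.37 and 7.32 to 5.25, 5.37 and 5.15, by 2.32 ± 0.28 (limma adjusted p = 5.67e-08, -2.80 to -1.99 within slides). With scaling to the 75th percentile 6 members were up and 3 down. Of the eIF3 genes, Eif3h (1.72) and Eif3f (1.20) were up and none was down.

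From the 1-cell to the 2-cell stage 5 members were up (9.80%) and 22 down (43.1%), where 18.7% of all genes were up and 33.8% down. The median LFC was -0.54 over the members. With plain quantile normalization 10 were up and 12 down. Without 2-cell control replicate 1, 7 were up and 21 down: Eif2b5 (1.32), Eif3l (1.33) and Eif4e2 (1.12) were then up, and Eif4a3 (0.85) and Eif2s1 (-0.81) were no longer DEGs. Shares of all genes without that replicate were not computed for this step. Eif1a had the largest rise, from 4.62, 3.74 and 4.31 to 10.88, 10.53 and 10.41, with 2 of the 3 1-cell arrays well above background. The LFC was 6.38 ± 0.19 (limma adjusted p = 4.73e-22, 6.10 to 6.80 within slides). Eif2ak3 rose by 4.31 ± 0.28 (limma adjusted p = 3.74e-14, 3.06 to 4.97 within slides), Eif1ad by 3.20 (its second probe gave -2.84) and Eif4ebp1 by 2.70. Eif3e fell from 12.28, 12.61 and 12.48 to 8.18, 8.71 and 8.61, by 3.96 ± 0.12 (limma adjusted p = 9.08e-22, -4.10 to -3.87 within slides), and Eif1b had an LFC of -3.23 ± 0.19 (limma adjusted p = 2.18e-15, -3.73 to -2.60 within slides). Of the 13 eIF3 genes 6 were down and none up. Probes of 1 gene often differed in sign at this step. Beside Eif1ad, another probe opposed the brightest one for Eif3m (1.11 against -1.62), Eif3c (0.74 against -1.54), Eif4e (3.93 against -1.19), Eif2s3x (1.06 against -0.50), Eif3j1 (0.74 and 2.36 against -0.98) and Eif6 (2.20 against -0.50), and smaller opposite values were seen for Eif1, Eif2s1 and Eif4e2. Eif2s3y went from below background to 6.45 to 8.22, at least a 9.52-fold rise (limma adjusted p = 6.41e-17).

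From the 2-cell to the 4-cell stage 29 members were up (56.9%) and 7 down (13.7%), where 24.5% of all genes were up and 35.9% down. The median LFC was 1.31 over the members and -0.30 over all genes. Without 2-cell control replicate 1, 29 were up and 6 down: Eif1ax (1.02) was then up, and Eif5 (0.97) and Eif1b (-0.65) were no longer DEGs. Shares of all genes without that replicate were not computed for this step. The eIF3 genes rose together: 12 of 13 were up, by 1.26 to 4.71, and the remaining one, Eif3j1, had the lowest LFC (0.11). Eif3m was 7.95, 9.22 and 9.03 in 2-cell and 13.40, 13.46 and 13.48 in 4-cell embryos. Its LFC was 4.71 ± 0.18 (limma adjusted p = 2.88e-20, 4.25 to 5.45 within slides). Eif3g was 10.95, 11.92 and 11.65 in 2-cell and 15.83, 15.67 and 15.67 in 4-cell embryos, an LFC of 4.22 ± 0.14 (limma adjusted p = 2.51e-21, 3.75 to 4.88 within slides). The count of 12 eIF3 genes up was the same with quantile normalization, with scaling to the 75th percentile and without 2-cell control replicate 1. Of the eIF2B genes 4 of 5 were up, Eif1a rose by a further 2.92 and Eif4h by 3.30.

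The 7 members that fell at the same step included 2 genes of cap-binding proteins. Eif4e1b, an oocyte homolog of the cap-binding protein gene Eif4e, was 16.76 to 17.74 in GV and MII oocytes and 1-cell embryos. It was 16.45, 15.21 and 15.34 in 2-cell and 9.90, 9.40 and 9.51 in 4-cell embryos, an LFC of -6.07 ± 0.25 (limma adjusted p = 2.15e-19, -6.55 to -5.81 within slides). Eif4e3 went from 11.79, 10.94 and 11.15 to 6.93, 6.55 and 6.69, an LFC of -4.57 ± 0.25 (limma adjusted p = 3.65e-16, -4.87 to -4.39 within slides). Also down were Eif2ak4 (-3.27), Eif4enif1, whose protein binds eIF4E (-2.57), Eif4g3 (-1.82), Eif1 (-1.56, with its second probe at 0.47) and Eif1b (-1.05). Another probe of Eif2ak4 gave -0.22 (adjusted p = 0.38). Eif4e itself rose by 1.33 and Eif4e2 by 1.84 at this step, with other probes of these genes at -0.85 and -2.30.

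**Figure D4:**
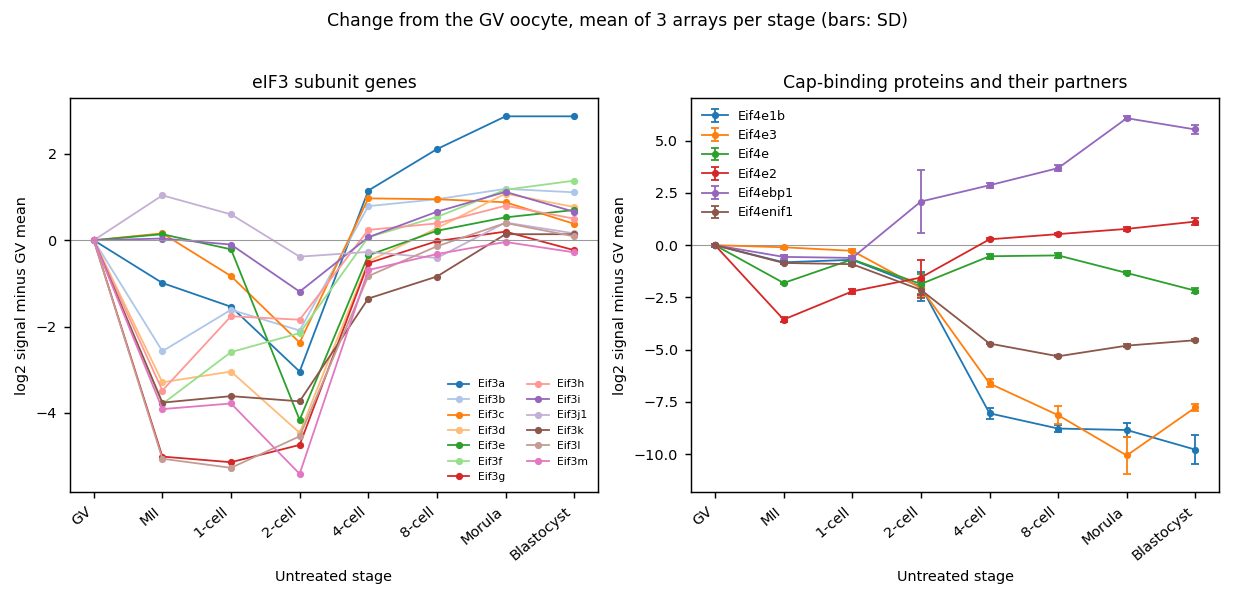
Mean signal of 3 arrays at each untreated stage (x axis) minus the mean of GV oocytes (y axis, log2), for the 13 eIF3 genes (left) and for 6 genes of cap-binding proteins and their partners (right, with the SD over 3 arrays as bars). Between the 2-cell and 4-cell stages 12 eIF3 genes rose by 1.26 to 4.71 while Eif4e1b and Eif4e3 fell (LFC -6.07 and -4.57).

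After the 4-cell stage fewer members moved. From the 4-cell to the 8-cell stage 1 was up and 1 down (1.96% each), where 7.77% of all genes were up and 7.24% down. Eif2d, whose protein delivers tRNA independently of GTP, had an LFC of 1.01 ± 0.14 (limma adjusted p = 9.05e-07, 0.97 to 1.04 within slides), a call lost under 4 of the other settings (0.80 to 0.95) and without 4-cell replicate 2 or 3 or 8-cell replicate 1 (0.90 to 1.00), and Eif4e3 one of -1.52 ± 0.25 (limma adjusted p = 1.89e-05, -2.24 to -1.13 within slides). From the 8-cell stage to the morula 5 were up (9.80%) and 1 down (1.96%), where 30.3% of all genes were up and 6.45% down. Eif4ebp1 rose from 13.09, 12.85 and 12.87 to 15.32, 15.42 and 15.24, by 2.39 ± 0.34 (limma adjusted p = 5.55e-07, 2.23 to 2.57 within slides), and Eif2d by 1.81 ± 0.14 (limma adjusted p = 1.67e-12, 1.72 to 1.89 within slides). Eif4e3 was not well above background in morulae, at least 1.59-fold lower than in 8-cell embryos (limma adjusted p = 1.27e-07). With quantile normalization 1 was up and 2 down, and with scaling to the 75th percentile 3 and 3.

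From the morula to the blastocyst 2 members were up and 2 down (3.92% each), where 19.2% of all genes were up and 7.60% down. Eif4e3 was at least 2.06-fold higher in blastocysts (limma adjusted p = 8.59e-09), between 5.38 and 5.72 on the 3 arrays. Eif2ak4 rose by 1.06 ± 0.25 (limma adjusted p = 6.49e-04, 0.92 to 1.17 within slides), a call lost under the other scalings (0.60 and 0.63), with the mean of its probes (0.71) and without morula replicate 2 (0.99), and Eif5, the GTPase activator of eIF2, fell by 1.12 ± 0.24 (limma adjusted p = 2.95e-04, -1.17 to -1.09 within slides). Eif6 fell by 1.05 ± 0.10 (limma adjusted p = 4.44e-10, -1.25 to -0.72 within slides). With scaling to the 75th percentile 1 was up and 10 down. Eif2ak2 (PKR), outside the detection filter, was well above background on the 3 blastocyst arrays (4.82, 5.46 and 5.32) and on no other array. Eif5b, measured by a single probe, was well above background on the 3 control 4-cell arrays alone (4.91, 4.59 and 4.58); on the T247 arrays of that stage it was 3.39, 1.91 and 3.72, at least 1.83-fold lower (limma adjusted p = 1.85e-04, with probes detected in any condition included).

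Of the members with the largest falls with T247 at the 2-cell stage, Eif3c and Eif1ad (by its brighter probe) were at control level at the next one. Eif2b5 was still lower than its controls. In 4-cell embryos Eif3c was 15.07, 15.03 and 14.80 against 14.96, 15.21 and 15.02 in controls, Eif1ad 14.48, 14.50 and 14.54 against 14.51, 14.49 and 14.40, and Eif2b5 at most 10.74 against at least 11.37. Eif3c and Eif1ad overlapped with the controls, and Eif2b5 did not (LFC -0.78, not a DEG).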

How the data were processed

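The authors hybridized Cy3-labelled cRNA, amplified from poly(A) ends, to 1-color Agilent 60-mer arrays and read the spots with Agilent Feature Extraction (9.5.1.1 per the labels and methods). The deposited intensity values are background-subtracted processed signals on a linear scale, with raw mean and background intensity and detection flags beside them, and were not normalized between arrays. The log2 values of the series matrix that the authors deposited were normalized by them and served as an alternative; no columns of other samples were left over. Dependence of the signal on poly(A) tail length was not tested.

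Probes were named by RefSeq accession (27229), symbol (3586) or synonym (565) against RefSeq (GRCm38.p6), and 24301 remained unnamed. A probe was kept when each of the 8 conditions of the HDACi experiment had an array on which it was positive and significant, and a gene was represented by its brightest probe (15901 genes). Undetected spots (3.86% of the values tested) kept their deposited signal. Signals were log2-transformed, smooth-quantile-normalized over the 13 conditions (own implementation, window 0.05) and analysed in 1 model over all 39 arrays (limma 3.58.1, R 4.3.3), with Benjamini-Hochberg adjustment within each comparison. Probes outside the filter were placed on the same scale through each array's own mapping. Bounds ("at least") set a dim group to the lowest signal well above background on its arrays. Precision is limited by having 3 arrays per condition; the study calls them independent biological samples. The fit was tested on simulated data. All members are given; in full are Eif1a, Eif5a2, the 3 DEGs with the largest rise and fall in each HDACi comparison and the 2 in each stage comparison. The members and lists were chosen with earlier results of these data known. Alternatives covered scaling, background correction, filter, probe summary, blocks and arrays left out. For the untreated stages the replicate number is also the slide, so that it pairs the arrays in every stage comparison. The correlation of deviations between arrays of the same number was 0.103 to 0.165 from the 4-cell to the 8-cell stage. In the other stage comparisons it ran from -0.00359 to 0.192.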

Additional observations from a re-analysis of the deposited data

Results flagged for a closer look

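The LFC of several members differed between the 1-cell and the 2-cell stage by the interaction term of the limma fit (LFC at the 2-cell minus LFC at the 1-cell stage). With T247, 17 of 51 members had a lower LFC at the 2-cell stage by at least 1 on the log2 scale (14.8% of all genes did) and none a higher one. They were Eif3c (-2.70), Eif3h (-1.52), Eif3g (-1.26), Eif3l (-1.21) and Eif3b (-1.20) of eIF3; Eif2b5 (-2.46), Eif2b4 (-1.79) and Eif2b3 (-1.77) of eIF2B; Eif2s2 (-1.54), Eif2s1 (-1.54) and Eif2a (-1.19); Eif4h (-2.45), Eif4e2 (-1.58) and Eif4b (-1.15); and Eif1ad (-2.35), Eif2ak3 (-1.22) and Eif6 (-1.19). Adjusted p-values of limma ranged from 6.54e-11 (Eif3h) to 0.0197 (Eif2ak3).

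With MGCD0103, 15 members had a lower LFC at the 2-cell stage and 1 a higher one, where 15.5% and 6.15% of all genes did. The lower ones were Eif1ad (-3.14), Eif3c (-2.84), Eif2b5 (-2.58), Eif2b4 (-2.29), Eif4h (-1.90), Eif3l (-1.79), Eif3g (-1.63), Eif3m (-1.55), Eif4e2 (-1.49), Eif2a (-1.46), Eif4ebp1 (-1.38), Eif2ak3 (-1.33), Eif2s1 (-1.09), Eif3f (-1.08) and Eif3b (-1.03). Eif2ak4 had the higher LFC (1.23). Control replicate 1 of the 2-cell stage, which stands apart, enters each of these values. Without it, 24 members passed with T247, 17 of them shared with the count above, and 21 with MGCD0103, 15 of them shared. No share of all genes was computed without that replicate.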

How the results depend on the processing

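All results were recomputed with other scalings, background correction, detection filters, probe summaries, the authors' log2 values, a fit of 24 arrays with fill-in, slide or replicate blocks and each array left out in turn. Of 777 recomputed LFCs of the 45 named results, 727 kept their direction and their side of the DEG limit, 36 were no longer DEGs, 14 became DEGs and 0 changed direction. Apart from Eif1a and Eif5a2 these results were chosen for their size, which makes a change of direction unlikely. No setting was meant to swap a gene's probe for another, and the probes of Eif1ad gave -2.93 and 1.83 with MGCD0103 at the 2-cell stage. From GV to MII oocytes, 2 member DEGs turned with quantile normalization and 3 with scaling to the 75th percentile. The number of initiation factor DEGs moved by more than 1.5 times as follows. With quantile normalization it was 0 with MGCD0103 at the 1-cell stage (1 in the main fit), 12 with T247 at the 2-cell stage (19), 2 with T247 at the 4-cell stage (5), 1 from the 4-cell to the 8-cell stage (2) and 3 from the 8-cell stage to the morula (6). With scaling to the 75th percentile it was 0 with MGCD0103 at the 1-cell stage, 9 from the MII oocyte to the 1-cell stage (14), 1 from the 4-cell to the 8-cell stage, 11 from the morula to the blastocyst (4) and 10 for the difference between the 2-cell and 1-cell LFCs of T247 (17). With normexp background correction it was 0 with MGCD0103 at the 1-cell stage and 0 from the 4-cell to the 8-cell stage, where the series matrix gave 1. The cause was not tested.

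With each array left out in turn, the counts ranged from 1 to 1 (T247) and 0 to 1 (MGCD0103) at the 1-cell stage, 18 to 23 (T247) and 13 to 23 (MGCD0103) at the 2-cell stage and 3 to 6 with T247 at the 4-cell stage. For MGCD0103 minus T247 they ranged from 0 to 0 at the 1-cell and from 2 to 5 at the 2-cell stage, with 5 without MGCD0103 replicate 3. Between untreated stages they ranged from 28 to 30 (GV to MII), 12 to 15 (MII to 1-cell), 25 to 28 (1-cell to 2-cell), 35 to 37 (2-cell to 4-cell), 2 to 3 (4-cell to 8-cell), 6 to 8 (8-cell to morula) and 3 to 5 (morula to blastocyst). For the difference between the 2-cell and 1-cell LFCs they ranged from 15 to 24 (T247) and 11 to 21 (MGCD0103).

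The replicate number as a block, which for untreated stages is also the slide, changed no count. The block fit gave 19 members with T247 and 19 with MGCD0103 at the 2-cell stage, and 2 from the 4-cell to the 8-cell stage. Signal over background limits Eif1a at the 1-cell stage, Eif4e3 in morulae and Eif2ak2, Eif2s3y and Eif5b.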
